A study of Mus musculus with 6 samples.

Results

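The BCL2 family decides whether a cell keeps its mitochondria intact or dies by apoptosis, and 10 of its genes were followed here in granulocyte-monocyte progenitors, the bone marrow cells that give rise to neutrophils and monocytes. The members were taken by gene name from the all-gene table, in which each name occurred once, so 10 of 24205 listed genes were described. All 10 passed the minimum of 1 TPM in at least 3 libraries, as did 13787 genes in all. TPM corrects read numbers for gene length and library total, so levels can be compared between genes. The progenitors had been sorted from the marrow of C57BL/6 mice directly into extraction buffer and profiled by bulk RNA sequencing. One group of 3 libraries, called sham, came from sham-operated mice, and the other group of 3, called HI, from mice with hindlimb ischemia, a surgical model of arterial blockage in a hind leg. The comparison asked how the RNA of marrow progenitors differs after an ischemic injury elsewhere in the body. The labels name no genetic modification, age, sex or time after surgery, and do not say that each library is a separate animal, so p-values measure the spread between these libraries.

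BCL2 family proteins act on the outer mitochondrial membrane. The guardians encoded by Mcl1, Bcl2 and Bcl2l1 (BCL-XL) hold in check the pore-forming effectors BAX and BAK, and BH3-only proteins, which carry only the third of the family's homology motifs, release or activate the effectors when survival signals are lost or damage is sensed. Open pores let cytochrome c out of the mitochondrion, which starts the caspase cascade. Myeloid progenitors and neutrophils are known for their dependence on MCL1, and loss of cytokine support in these lineages is known to act largely through BIM, the product of Bcl2l11, and PUMA, the product of Bbc3.

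The family is held together by the BH3 motif, in which a leucine is followed 5 residues later by an aspartate after a small residue. The 30 coding bases (10 codons) around it are shown for 9 members because this segment takes part in binding between family members. The codon of the leucine and that of the aspartate are in capitals. Sequences were read 5′ to 3′ on the coding strand from GENCODE M21 transcripts (GRCm38), and each lies within a single exon.
Mcl1 (chr3:95659430-95659459, plus strand): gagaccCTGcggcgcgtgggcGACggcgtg
Bcl2 (chr1:106712578-106712607, minus strand): ctgaccCTCcgccgggctgggGATgacttc
Bcl2l1 (chr2:152829700-152829729, minus strand): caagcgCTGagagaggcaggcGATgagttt
Bax (chr7:45466000-45466029, minus strand): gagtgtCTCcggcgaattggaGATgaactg
Bak1 (chr17:27022534-27022563, minus strand): cggcagCTTgctctcatcggaGATgatatt
Bcl2l11 (chr2:128147144-128147173, plus strand): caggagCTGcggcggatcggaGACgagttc
Bad (chr19:6950786-6950815, plus strand): cgtgagCTCcgaaggatgagcGATgagttt
Bid (chr6:120897292-120897321, minus strand): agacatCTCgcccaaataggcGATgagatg
Bbc3 (chr7:16313767-16313796, plus strand): gcccagCTGcggcggatggcgGACgacctc
Each of these 9 genes held the motif 1 time in its longest coding sequence, and Pmaip1 (NOXA), whose sequence is not printed, held it 2 times. Among the 9, Bcl2l11 and Bbc3 shared the most bases, 21 of 30, and the pairs that shared the fewest had 12 of 30 in common.

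The mRNA levels of the 10 members spanned a 33.7-fold range. Bax had the highest mean, 140.0 TPM over the 6 libraries, followed by Mcl1 with 99.3 TPM and Bid with 83.9 TPM. Bad (26.1 TPM) and Bcl2 (21.4 TPM) formed a middle tier, and Pmaip1 (7.10 TPM), Bcl2l1 (6.96 TPM), Bbc3 (4.44 TPM), Bak1 (4.25 TPM) and Bcl2l11 (4.15 TPM) a low one. Bax lay above Mcl1, Bid above Bad, and Bcl2 above Pmaip1 with no overlap of their values over the 6 libraries. The ranges of the other 6 neighbouring pairs overlapped, and Bbc3, Bak1 and Bcl2l11 could not be ordered by level. Mcl1 supplied 75.1 to 80.5% of the summed TPM of the 3 guardians in every library, and Bax 96.5 to 97.6% of that of the 2 effectors. Bid supplied 64.9 to 69.6% of the BH3-only sum.

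**Figure D1:**
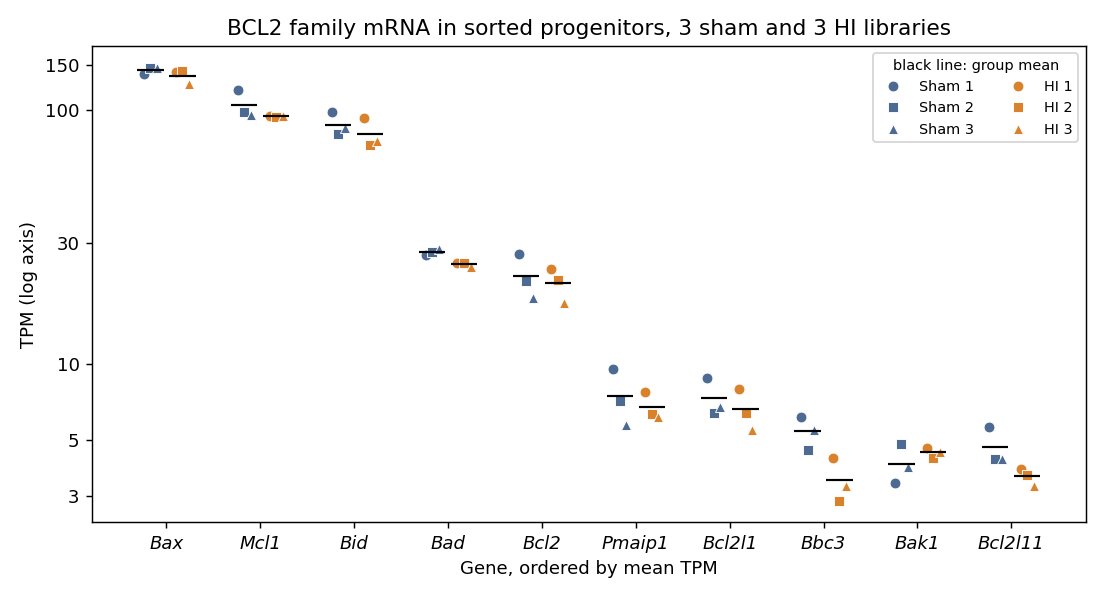
TPM on a log axis of the 10 BCL2 family genes in 3 sham (blue) and 3 HI (orange) libraries, with black lines at group means and marker shapes for replicate numbers. Bax, Mcl1 and Bid sit far above the other members, and the HI values of Bbc3, Bcl2l11, Mcl1 and Bad lie below their sham values.

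With limma-trend on log2(TPM + 1), 0 of the 10 members passed the threshold of 0.05 for the Benjamini-Hochberg adjusted p over all genes tested, as for all genes (0% of 13787). At an unadjusted p under 0.05, 1 member, Bbc3, was lower after hindlimb ischemia and 0 were higher, where 3.89% of all genes had such a p, 2.95% lower and 0.943% higher. The 3 HI values of 4 members (Bbc3, Bcl2l11, Mcl1 and Bad) lay below all 3 sham values, where 6.68% of all genes had that pattern, and 0 members had HI values all above sham (1.65% of all genes; 8.33% in either direction). Means on the log scale were lower after hindlimb ischemia for 9 members and higher for Bak1, against 69.1% lower and 30.9% higher over all genes. The median log2 fold change of the 10 was -0.13, beside -0.09 for all genes tested.

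That downward shift of all genes is part of each value. Dividing TPM by median-of-ratios size factors, which ran from 0.884 for HI replicate 3 to 1.17 for sham replicate 1, moved the median of all genes to 0.02. It moved the median of the 10 members to -0.02, and left non-overlapping groups for 2 members, Bbc3 and Bcl2l11 (5.51% of all genes had HI values all below sham on this scale). Quantile normalization left the same 2 (6.31% of all genes). Sham replicate 1 held the highest TPM of 7 members, and HI replicate 3 the lowest of 5. These libraries also had the highest and lowest size factors. The shares of all genes that were highest or lowest there were not computed.

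**Figure D2:**
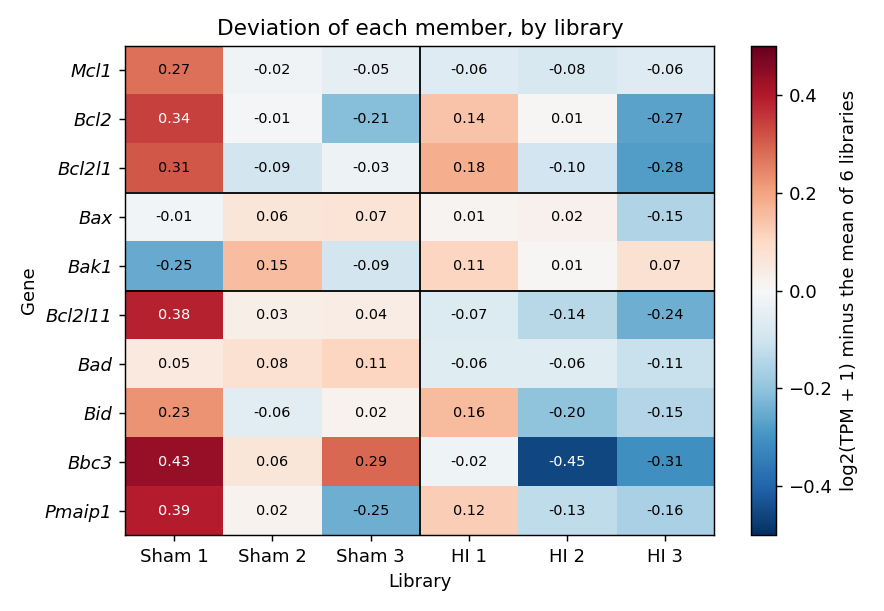
Deviation of log2(TPM + 1) from the mean of 6 libraries for each member (rows, grouped as guardians, effectors and BH3-only genes) in each library (columns). Sham replicate 1 is above the mean, by 0.226 for Bid to 0.434 for Bbc3, for Mcl1, Bcl2, Bcl2l1, Bcl2l11, Bid, Bbc3 and Pmaip1, while Bak1 is at -0.25 there.

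Bbc3 (ENSMUSG00000002083, GRCm38/mm10 chromosome 7, 16308393 to 16318205, plus strand) encodes PUMA, a BH3-only protein known as a transcriptional target of p53 and FOXO3. Its TPM was 6.19, 4.56 and 5.49 in sham replicates 1, 2 and 3, and 4.24, 2.89 and 3.30 in the HI replicates. Every HI library lay below every sham library, with HI replicate 1 closest to the sham range. Mean levels were 5.41 ± 0.818 TPM for sham and 3.48 ± 0.696 TPM for HI (± SD, n = 3 per group), a ratio of 0.642. The limma log2 fold change was -0.52 (SE 0.18; 95% confidence interval of the fold 0.528 to 0.918), with an unadjusted p of 0.0149 and an adjusted p of 0.874. With size factors the log2 fold change was -0.43 (SE 0.14; unadjusted p 0.0135 and adjusted p 0.853 by limma), where 2.64% of all genes were lower at an unadjusted p under 0.05 on that scale. The unadjusted p by limma rose to 0.0510 without sham replicate 1 and to 0.0806 without HI replicate 2, with log2 fold changes of -0.44 and -0.43. The values rest on 117 to 226 recovered reads per library, whole up to a common factor, for which counting error alone would give a CV of up to 9.25%.

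Bcl2l11 (ENSMUSG00000027381, chromosome 2, 128126038 to 128162547, plus strand) encodes BIM, the BH3-only protein that rises in many blood cells when cytokines are withdrawn. Its TPM was 5.65, 4.21 and 4.23 in sham and 3.86, 3.63 and 3.30 in HI. The HI values lay below all sham values, and sham replicate 1 stood above the other sham libraries. The log2 fold change was -0.30 (SE 0.17; 95% confidence interval of the fold 0.627 to 1.05; unadjusted p 0.105 and adjusted p 0.874 by limma). With size factors the groups still did not overlap, at 4.84, 4.30 and 4.21 against 3.65, 3.77 and 3.74. Limma-voom on the recovered reads, 528 to 767 per library, gave an unadjusted p of 0.0389, where 4.19% of all genes were lower at an unadjusted p under 0.05.

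Ratios within a library do not change when a library is divided by a single factor, as with size factors, though quantile normalization can change them. There were 19.4, 21.5 and 17.4 Mcl1 transcripts per Bbc3 transcript, in TPM, in sham and 22.3, 32.4 and 28.7 in HI. For Mcl1 over Bcl2l11 the ratios were 21.2, 23.2 and 22.6 in sham and 24.5, 25.8 and 28.6 in HI, and for Bcl2 over Bcl2l11 they were 4.8, 5.0 and 4.29 against 6.07, 5.86 and 5.27. In each of these 3 ratios the groups did not overlap, with HI above sham. Bbc3 and Bcl2l11 together made up 8.11, 7.10 and 7.58% of the BH3-only sum in sham and 6.05, 5.91 and 5.89% in HI. These ratios all hold Bbc3 or Bcl2l11, whose groups already stayed apart with size factors, so their separation is no independent evidence. They were chosen after the values were seen and were not tested. The share of all gene pairs with such a pattern was not computed. For 3 other ratios of single members the groups overlapped. Bax over Bak1 ran from 30.3 to 40.9 in sham and 27.9 to 33.3 in HI, Mcl1 over Bcl2 from 4.42 to 5.27 and 4.03 to 5.43, and Bcl2l11 over Bbc3 from 0.770 to 0.924 and 0.911 to 1.26. By the TPM of each library, Bax over Bbc3 and Bid over Bbc3 were also higher in every HI library than in every sham library. Ratios of the remaining pairs were not compared. The separation is therefore not particular to the guardian genes. The ratio of all 3 guardians to all 5 BH3-only genes, which Bid dominates, overlapped between the groups, at 1.07, 1.01 and 0.940 in sham and 0.941, 1.10 and 1.05 in HI.

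**Figure D3:**
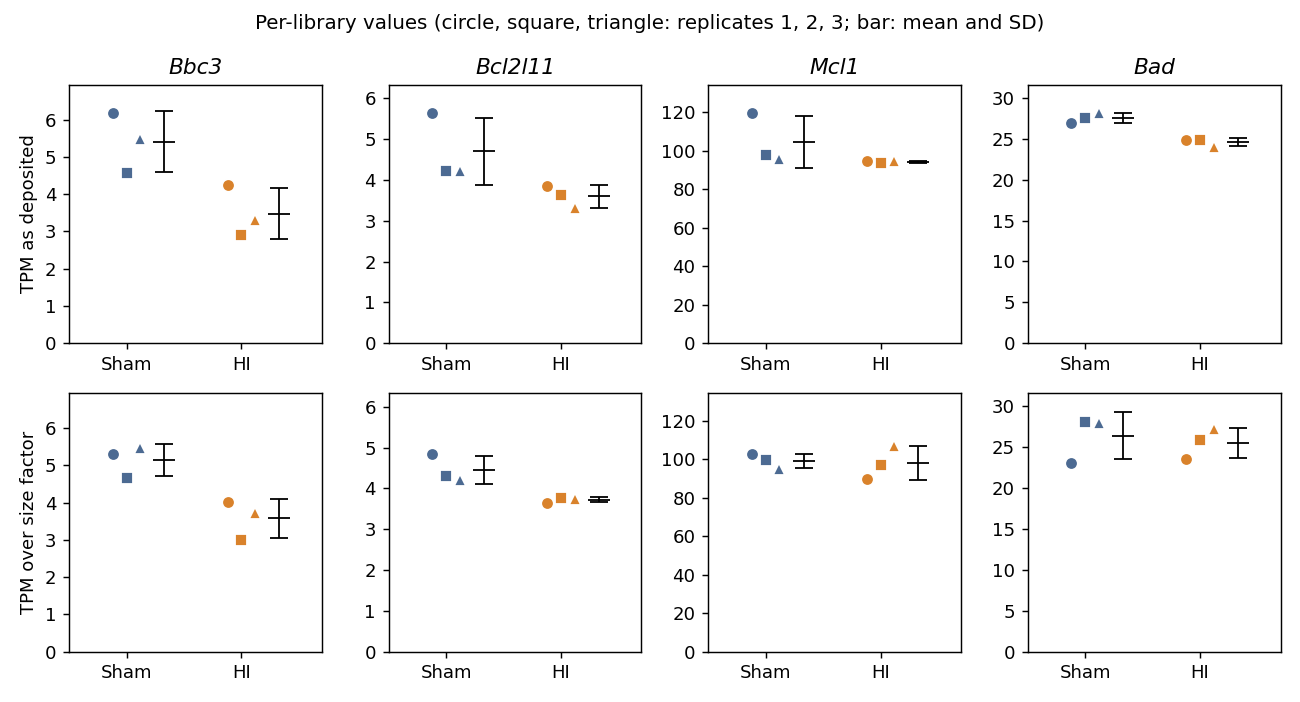
Values per library of the 4 members whose TPM groups did not overlap, as deposited (upper row) and after division by size factors (lower row), with the mean and SD of 3 libraries beside the points and axes starting at 0. Bbc3 and Bcl2l11 stay separated in the lower row, while Mcl1 and Bad overlap there.

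The promoters of Bbc3 and Bcl2l11 are shown because these were the 2 members whose groups stayed apart under each of the 3 scalings. The windows are those of RefSeq on GRCm38.p6, 250 bases before to 50 bases after the annotated start, for the start nearest to that of the transcript above. Capitals mark matches, on either strand, to the motifs searched: the GC box spelled GGGCGG, the CCAAT box with its own letters, the TATA box spelled TATAAA, the E-box spelled CACGTG, the cyclic AMP response element spelled TGACGTCA, a forkhead motif spelled GTAAACA, a STAT motif spelled TTCCNGGAA, and the p53 half-site.
Bbc3 (chr7:16309333-16309632, plus strand): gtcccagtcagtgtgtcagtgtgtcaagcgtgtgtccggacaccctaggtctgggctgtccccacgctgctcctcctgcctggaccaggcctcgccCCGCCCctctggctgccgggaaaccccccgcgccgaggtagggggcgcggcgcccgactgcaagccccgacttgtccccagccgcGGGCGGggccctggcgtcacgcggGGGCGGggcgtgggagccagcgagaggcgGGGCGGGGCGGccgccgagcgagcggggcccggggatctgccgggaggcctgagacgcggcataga
Bcl2l11 (chr2:128125788-128126087, plus strand): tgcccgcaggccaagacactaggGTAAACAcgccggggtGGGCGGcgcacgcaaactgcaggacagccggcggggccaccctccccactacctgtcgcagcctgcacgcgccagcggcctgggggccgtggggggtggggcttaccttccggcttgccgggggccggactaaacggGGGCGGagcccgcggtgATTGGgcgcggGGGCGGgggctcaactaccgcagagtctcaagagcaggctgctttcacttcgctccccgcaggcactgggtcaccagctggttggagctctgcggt
The Bbc3 window held 5 GC boxes, 2 of which overlap by 1 base, and no other motif searched. The Bcl2l11 window held 3 GC boxes, 1 CCAAT box and 1 forkhead motif. Of all 32851 RefSeq windows, 35.7% held the GC box, 37.4% CCAAT and 3.65% the forkhead motif. Of the 9 members with a window, 7 held a GC box, and Bax alone held the p53 half-site (8.36% of all windows) and the E-box (7.15%). TATAAA (13.6%), TGACGTCA (1.79%) and TTCCNGGAA (1.15%) occurred in 0 of the 9. The GC content of the Bbc3 and Bcl2l11 windows was 76.0 and 71.0%, beside a median of 52.7% for all windows.

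Among the guardians, Mcl1 (ENSMUSG00000038612, chromosome 3, 95658788 to 95663176, plus strand), a short-lived protein on which granulocyte precursors depend, had 119.8, 97.8 and 95.6 TPM in sham and 94.6, 93.6 and 94.6 TPM in HI. The HI libraries lay just under sham replicates 2 and 3, and sham replicate 1 stood above all others. Its log2 fold change was -0.14 (SE 0.13; 95% confidence interval of the fold 0.740 to 1.11; adjusted p 0.874 by limma). With size factors it was -0.02 and the groups overlapped.

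Bcl2 (ENSMUSG00000057329, chromosome 1, 106538178 to 106714274, minus strand), the founding survival gene of the family, had 27.1, 21.1 and 18.1 TPM in sham and 23.5, 21.3 and 17.4 TPM in HI. The groups overlapped, and the log2 fold change of -0.08 (SE 0.19; 95% confidence interval of the fold 0.714 to 1.25; adjusted p 0.928 by limma) was 0.03 with size factors and 0.04 with quantile normalization. Bcl2l1 (ENSMUSG00000007659, chromosome 2, 152780668 to 152831728, minus strand), whose long protein form BCL-XL is known for the survival of erythroid cells and platelets, had 8.78, 6.41 and 6.74 TPM in sham and 7.96, 6.38 and 5.50 TPM in HI. Its groups overlapped (log2 fold change -0.13, SE 0.19; adjusted p 0.888 by limma).

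The effectors did not separate the groups. Bax (ENSMUSG00000003873, chromosome 7, 45461697 to 45466898, minus strand) had 138.7, 145.9 and 146.6 TPM in sham and 141.3, 141.8 and 125.8 TPM in HI, and varied least of the 10 members, with a CV of 5.42% over the 6 libraries. Its log2 fold change was -0.08 (SE 0.12; 95% confidence interval of the fold 0.787 to 1.14; adjusted p 0.895 by limma) and 0.04 with size factors. Bak1 (ENSMUSG00000057789, chromosome 17, 27019810 to 27029009, minus strand), the other pore former, had 3.39, 4.82 and 3.91 TPM in sham and 4.64, 4.26 and 4.51 TPM in HI. Sham replicate 1, the highest library for 7 members, was the lowest for Bak1. Bak1 was the member with a higher mean after hindlimb ischemia, with a log2 fold change of 0.13 (SE 0.17; 95% confidence interval of the fold 0.845 to 1.41; adjusted p 0.885 by limma). That sign held in all 14 alternatives in which Bak1 was tested. It rests on 138 to 269 reads per library.

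Of the other BH3-only genes, Bad (ENSMUSG00000024959, chromosome 19, 6941861 to 6951899, plus strand), whose protein is inactivated by survival kinases, had 26.9, 27.5 and 28.2 TPM in sham and 24.9, 24.9 and 24 TPM in HI. Its values were tight within each group and did not overlap, with a ratio of means of 0.894 and a log2 fold change of -0.16 (SE 0.14; adjusted p 0.874 by limma). With size factors the groups overlapped and the value was -0.04. Bad shares 524 exonic bases with Gpr137 on the opposite strand (9.63 TPM), and without known strand the reads of the overlap cannot be told apart.

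Bid (ENSMUSG00000004446, chromosome 6, 120891930 to 120916853, minus strand), which caspase-8 cleaves to link death receptors to mitochondria, had 97.7, 80.1 and 84.5 TPM in sham and 93.2, 72.5 and 75.2 TPM in HI. HI replicate 1 lay inside the sham range, and the log2 fold change was -0.13 (SE 0.15; adjusted p 0.876 by limma). Bid overlaps 628 exonic bases of its family relative Bcl2l13 on the opposite strand. Pmaip1 (ENSMUSG00000024521, chromosome 18, 66458533 to 66465565, plus strand) encodes NOXA, which binds MCL1 and promotes its degradation. It had 9.52, 7.10 and 5.75 TPM in sham and 7.73, 6.33 and 6.16 TPM in HI. The HI values lay inside the sham range, and the log2 fold change was -0.11 (SE 0.19; 95% confidence interval of the fold 0.690 to 1.25; adjusted p 0.909 by limma).

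**Figure D4:**
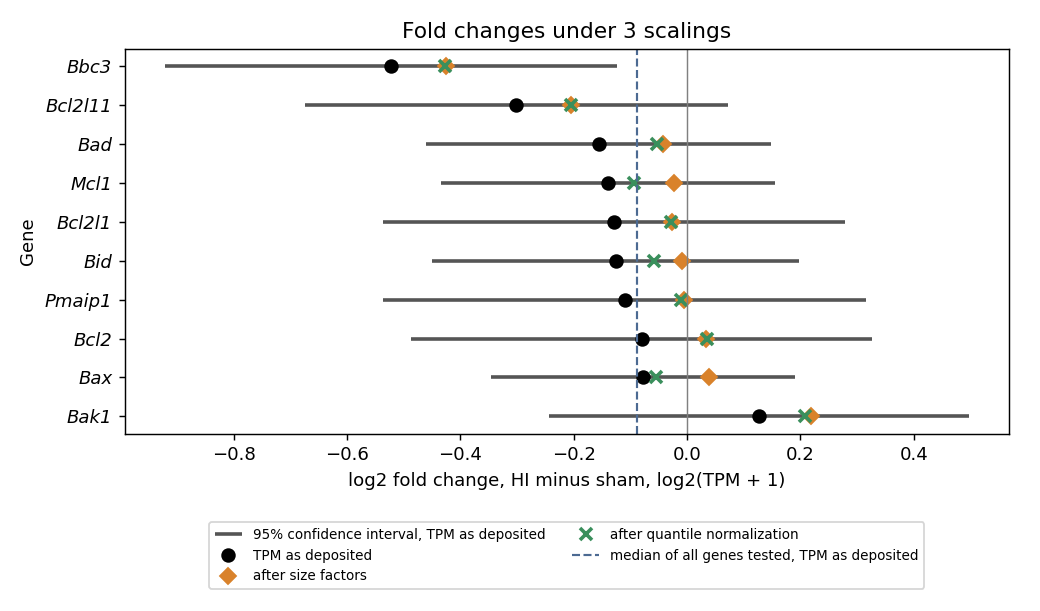
Log2 fold change of each member (HI minus sham) on log2(TPM + 1) with its 95% confidence interval, and the same value after size factors and after quantile normalization. The interval of Bbc3, with unadjusted bounds of -0.92 and -0.12, excludes 0 and the other 9 include it, and the dashed line marks the median of all genes tested at -0.09.

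In the authors' deposited table the log2 fold changes of hindlimb ischemia over sham, with the sign turned, were -0.33 for Bbc3, -0.21 for Bcl2l11 and 0.15 for Bak1. Those of the other 7 members lay between -0.04 and 0.03 in the authors' deposited table. The adjusted p of Bbc3 in the authors' deposited table was 0.791, the lowest of the 10 members. By the authors' test, 12 of the 15747 genes given an adjusted p had one under 0.05. The authors' short list of 34 genes held 0 of the 10 members.

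Across the 6 libraries, 18 of the 45 pairs of members had a Pearson r above 0.7 on log2(TPM + 1), with r = 0.94 for Bcl2 and Pmaip1, 0.92 for Bcl2l1 and Bid, 0.91 for Mcl1 and Bcl2l11 and 0.87 for Bcl2l11 and Bbc3. Bak1 had a negative r with all 9 others. These values describe 6 libraries that also share the scaling shown above. The share of all gene pairs with an r above 0.7 was not computed, so the count is not a trait of the family. Likeness was searched among protein-coding or otherwise named genes with a mean of at least 5 TPM. The genes most like Mcl1 among 8760 such others were Akirin1 (r = 0.99), Atf2 (0.99) and Mynn (0.99). For Bcl2l11 they were Cwc25, the apoptosis inhibitor Birc3 and Mbd4 (r = 1.00 each to 2 decimals), and for Bcl2 they were Mcm8, Prps1 and Itga4 (0.99 each).

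Other genes of the pathway were read from lists of related genes. Among BCL2-related genes outside the 10, 12 of 19 listed were tested and 0 passed the adjusted threshold. An unadjusted p under 0.05 was reached by 0, beside 3.89% of all genes. Their median was -0.05, beside -0.09 for all genes. The guardian genes Bcl2a1a (1.17 against 1.14 TPM in sham and HI) and Bcl2a1d were near 1 TPM, with paralogs between which reads may be split, and the BH3-only genes Bmf and Bik were under 1 TPM in every library. The most abundant were Tmbim6 (101.9 against 97 TPM), an endoplasmic reticulum membrane protein gene, and Bclaf1 (85.3 against 82.9 TPM). Bcl2l13 had 26.1 ± 4.63 and 21.8 ± 5.11 TPM, Bcl2l14 1.37 against 1.17 TPM and Bnip2 83.4 against 78.1 TPM.

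Downstream of the mitochondrion, 23 apoptosome, caspase and inhibitor genes were tested, of which 0 passed the adjusted threshold. At an unadjusted p under 0.05, 1 was lower and 0 were higher, beside 2.95% and 0.943% of all genes. That gene was Casp9, the caspase activated on the apoptosome, with 15.8, 12 and 13.3 TPM in sham and 11.4, 8.76 and 7.75 TPM in HI. Its groups did not overlap (log2 fold change -0.53, SE 0.18; unadjusted p 0.0149 and adjusted p 0.874 by limma). Cycs, the cytochrome c gene, which has many pseudogene copies, had 317.6, 345.2 and 300.3 TPM in sham and 302.7, 461.5 and 522.0 TPM in HI. HI replicate 1 lay within the sham range (log2 fold change 0.38, SE 0.18; unadjusted p 0.0631 and adjusted p 0.874 by limma). Birc3 had 11.9 ± 1.82 and 9.45 ± 0.743 TPM without overlap, and the channel gene Vdac3 274.4 ± 23.8 and 281.0 ± 5.70 TPM. Of the 23, 3 had HI values all below sham, Casp9 and Birc3 among them, beside 6.68% of all genes. The list median was -0.10, close to that of all genes.

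For death receptors and their adaptors, 8 of 9 genes were tested. An unadjusted p under 0.05 was reached by 0, beside 3.89% of all genes, and 7 had lower means, beside 69.1% of all genes. Their median was -0.28 (-0.17 with size factors), beside -0.09 (0.02) for all genes. Cflar, which encodes the caspase-8 inhibitor c-FLIP, had 13.9 ± 2.00 and 10.5 ± 1.18 TPM without overlap. The TNF receptor genes Tnfrsf1a and Tnfrsf1b had 112.6 against 92.4 TPM and 81.2 against 67.0 TPM, and the adaptor gene Traf2 21.4 against 17.8 TPM.

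Among p53 and its targets, a group to which Bbc3, Bax and Pmaip1 are also known to belong, 14 of 17 listed genes were tested and 0 passed the adjusted threshold. At an unadjusted p under 0.05, 4 were lower and 0 higher, beside 2.95% and 0.943% of all genes. Means were lower for 13 of 14, beside 69.1% of all genes. The median was -0.23 (-0.14 with size factors), beside -0.09 (0.02) for all genes. Cdkn1a, the cell cycle inhibitor p21, had 12.2, 12.5 and 10.7 TPM in sham and 8.72, 7.64 and 7.52 TPM in HI without overlap. Its log2 fold change was -0.52 (SE 0.16; unadjusted p 0.00692 and adjusted p 0.874 by limma). Phlda3 had 1.66 against 0.745 TPM, Sesn2 7.96 against 5.67 TPM, and Trp53inp1, named after its value was seen as the remaining one of the 4, 5.36 against 3.57 TPM. The 3 sham values alone brought Phlda3 past the minimum of 1 TPM in 3 libraries, with HI values of 0.49, 1.18 and 0.57 TPM. Its place among the 4 is therefore not independent of that filter. Trp53 itself had 99.2 ± 6.72 and 86.2 ± 15.4 TPM, and Ccng1 48.0 ± 5.38 and 43.8 ± 2.01 TPM.

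Of 25 genes that regulate the family's transcription or protein stability, 23 were tested and 0 passed the adjusted threshold. At an unadjusted p under 0.05, 3 were lower and 0 higher, where all genes had 2.95% and 0.943%. The list median was -0.23 (-0.11 with size factors), where that of all genes was -0.09 (0.02). Pim2, a survival kinase known to phosphorylate BAD, had 9.02, 7.89 and 7.91 TPM in sham and 5.61, 5.46 and 5.0 TPM in HI without overlap (log2 fold change -0.54, SE 0.16; unadjusted p 0.00496 and adjusted p 0.874 by limma). Ddit3 (CHOP), a stress factor known to induce Bcl2l11 and Bbc3, had 9.21 against 6.18 TPM, and the co-chaperone gene Bag3 10.8 against 7.94 TPM. Foxo3 had 4.51, 4.06 and 3.14 TPM in sham and 3.83, 2.98 and 3.20 TPM in HI, and is named after its values were seen. Myc (227.2 against 193.1 TPM) and Rps6ka1 (232.9 against 199.5 TPM) were the most abundant of this list.

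**Figure D5:**
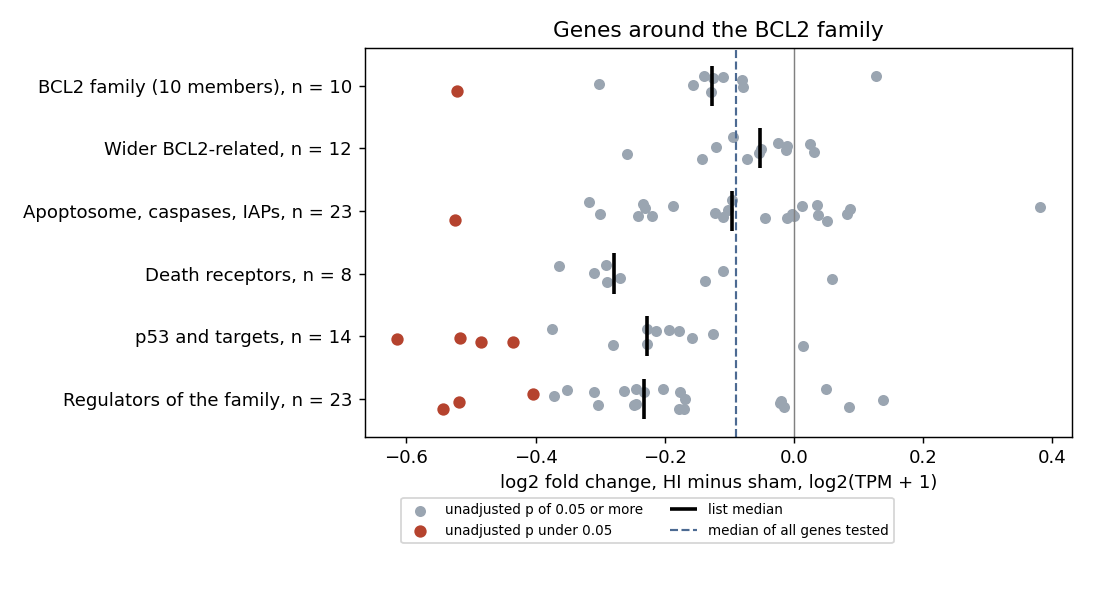
Log2 fold changes (HI minus sham) of the tested genes of the BCL2 family and 5 related lists, with red points for an unadjusted p under 0.05, black bars for list medians and a dashed line at the median of all genes, -0.09. In these lists red points occur on the lower side only, with 4 among p53 and its targets and 3 among regulators, and all genes also lean that way, with 2.95% lower and 0.943% higher at that p.

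The libraries carried the markers of their sort. All 9 markers of granulocyte-monocyte progenitors were tested, led by Mpo (11288 ± 1559 and 9846 ± 1922 TPM) and Elane (10672 ± 1484 and 10713 ± 676 TPM), and summed to between 25529 and 31459 TPM with overlapping groups. The 10 erythroid markers summed to 147.9 to 177.9 TPM in sham and 23.8 to 89.8 TPM in HI, without overlap. Of the 7 tested, 0 passed the adjusted threshold, all had lower means (69.1% of all genes) and 5 had HI values all below sham (6.68% of all genes). Most of these 5 are globin genes, which dominate the sum. Hba-a1 had 40.8 against 12.6 TPM and Hba-a2 46.9 against 14.6 TPM (adjusted p 0.653 and 0.66 by limma). These are near-identical copies that may share reads. Epor (1.42 against 1.19 TPM) and Car1 (9.71 against 8.27 TPM) overlapped. The erythroid membrane gene Slc4a1 was too low to be tested, with 1.21, 0.0557 and 0.18 TPM in sham and 0, 0.0405 and 0.0578 TPM in HI. The 11 lymphoid markers summed to 52.6 to 59.9 TPM in sham and 46.9 to 48.4 TPM in HI, mostly Cd79b (48.3 against 44.0 TPM), with Cd79a at 2.11 against 0.756 TPM and 5 of 11 at 0 in some library. Only 3 of the 11 were tested, and Vpreb1, the third, overlapped (1.42 against 1.27 TPM). Their median log2 fold change was -0.13, and -0.02 with size factors, beside -0.09 and 0.02 for all genes. Divided by the size factors, the lymphoid sums overlapped between the groups. Sums of the mature neutrophil (398.8 to 890.1 TPM, with S100a8 at 461.1 against 537.4 TPM and S100a9 at 100.1 against 89.4 TPM), macrophage (16.2 to 23.1 TPM, mostly Vcam1, followed by Axl) and stem cell markers (46.6 to 52.9 TPM, led by Ly6a and Flt3) overlapped between the groups. Of the 4 macrophage markers tested, the complement gene C1qb had 1.74, 1.85 and 1.75 TPM in sham and 0.810, 1.14 and 0.742 TPM in HI without overlap (unadjusted p 0.00803 and adjusted p 0.874 by limma), and C1qa, Vcam1 and Axl overlapped. The 3 sham values alone brought C1qb past the minimum of 1 TPM in 3 libraries, as for Cd79a, and both had HI values near that minimum. The lower HI levels of both are therefore not independent of that filter. The part of the erythroid, Cd79a and C1qb differences in the values of Bbc3, Bcl2l11 and the other members was not tested. In bulk RNA, fewer cells of a type and less RNA per cell cannot be told apart.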

How the data were processed

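For each of 24205 genes the deposited table lists TPM in every library, a log2 fold change and an adjusted p-value, all calculated by the authors, per the file headers. Per the submitters' processing notes, reads were placed on mm10. For the aligner, counter, strandedness and test, nothing is given in the sources used here. The deposited log2 fold change correlated with HI minus sham at a Spearman rho of -0.96 across genes, so its sign was turned. The 6 per-library columns of the short list were not used.

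TPM multiplied by the GENCODE M21 exon length fell on whole reads (tolerance 0.001) for 14448 genes (59.7%). For the rest, Mcl1, Bcl2, Bax, Bad, Bbc3 and Pmaip1 among them, the smallest length giving whole reads was used, so those reads are known only up to a shared multiple. Recovered totals were 32548023 to 41624578 reads per library. Libraries correlated at r from 0.973 to 0.993, and no pair agreed within sampling noise, with at least 14.6 chi-square per gene.

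Genes reaching 1 TPM in 3 or more libraries entered the fit of log2(TPM + 1) by limma-trend (limma 3.58.1, R 4.3.3; robust empirical Bayes, no covariate, 4 residual degrees of freedom) and p-values were adjusted by Benjamini-Hochberg over all genes tested. Fold changes on this scale understate those of low genes. The fit was checked on simulated reads. Other genes named are the 3 of smallest p and 2 of highest mean TPM in each pathway list, and the 2 of highest mean TPM in each marker list. Bcl2a1a, Bcl2a1d, Bmf, Bik, Trp53inp1, Foxo3, Slc4a1, Epor, Car1, Vpreb1, C1qa and C1qb were named outside this rule, after their values were seen. Members, lists and tests were chosen with earlier results of these data known.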

Additional observations from a re-analysis of the deposited data

How the results depend on the processing

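No member passed the adjusted threshold under any of 15 alternatives to the fit, where it was tested. Over all genes, against 0, limma without a trend gave 1 gene past it, and leaving out 1 library gave 0 to 41, the 41 without HI replicate 1. Deviations of same-numbered libraries correlated at 0.39, 0.18 and 0.08. Sham replicates 1 and 3 correlated best with the HI replicate of their own number, and sham replicate 2 with HI replicate 3. These values do not settle whether the replicate numbers pair the libraries. With the replicate number as a block, 69 genes passed the adjusted threshold and 0 members did, with 0.141 the adjusted p of Bbc3. At an unadjusted p under 0.05 the main fit had 1 member, where 3.89% of all genes had such a p. With a minimum mean of 5 TPM, which removes Bbc3 itself, there were 0 (3.23% of all genes). Limma-voom on recovered reads gave 2, Bbc3 and Bcl2l11 (5.56% of all genes). Leaving out 1 library gave 0 to 1, with shares of all genes from 1.72% without HI replicate 2 to 19.7% without HI replicate 1. Members with groups that did not overlap fell from 4 to 2 with size factors and to 2 with quantile normalization, alternatives added for this count after the data were seen. The shares of all genes with HI values all below sham were 6.68%, 5.51% and 6.31%. Of 147 comparisons of a member's fold change with its alternative, 141 kept sign and side of the threshold. The log2 fold change of Bcl2 became 0.033 with size factors, 0.035 with quantile normalization and, with 1 library left out, ran from -0.207 to 0.07. That of Bax became 0.039 with size factors, and that of Pmaip1 ran from -0.26 to 0.06 with 1 library left out. The positive values came without sham replicate 1 for both genes and also without HI replicate 3 for Bcl2 (0.034). The cause of these changes of sign was not tested. Bbc3 was lower in all 14 alternatives that tested it (log2 fold change -0.64 to -0.30), and so was Bcl2l11 (-0.36 to -0.17). Bbc3 and Bak1 rest on the fewest reads.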
